A study of Mus musculus with 21 samples.

Results

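The genes described here encode the subunits of the proteasome, the large protease that degrades proteins tagged with ubiquitin. They were taken by symbol: every row named Psma, Psmb, Psmc, Psmd or Psme followed by a number, without the immunoproteasome genes Psmb8 and Psmb9. This gave 40 of the 14493 genes in the table, of which 39 had enough counts to be tested. The exception was Psma8, the alpha ring subunit used in testis, with 8 UMIs (unique molecular identifiers, one per captured RNA molecule) in all cells. All members together held 572501 UMIs, 0.856% of the UMIs outside immunoglobulin genes.

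The proteasome consists of a hollow core particle and of caps that control entry to it. The core is a stack of outer alpha rings, which form the gate, and inner beta rings, which carry the proteolytic sites. The main cap, the regulatory particle, binds ubiquitin chains, removes them, and unfolds and feeds in the substrate through a ring of ATPases. Other activators open the gate without ubiquitin. In immune cells some beta subunits are exchanged for inducible versions, which gives the immunoproteasome and alters the peptides shown on MHC class I. Plasma cells secrete antibody in bulk and are known to depend on the proteasome for the disposal of misfolded protein from the endoplasmic reticulum.

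The data were UMI counts from single B lineage cells of the lymph nodes draining an immunisation. Mice received 100 µg of NP-KLH in Sigma Adjuvant System under the skin, and 1 gavage of 5 mg tamoxifen for Cre-ERT2 labelling with eYFP, no earlier than 6 days later. IgD-negative eYFP-positive cells were taken on days 10, 16 and 22 from 2 mice a day, so 6 mice in all, and sorted PC and non-PC were captured in separate wells. All groups share this treatment, and the labels used here give no strain, age or promoter for the Cre.

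The authors named 6 states, which are compared here: 242 cells were PC (plasma cells), 47 prePC (plasma cell precursors), 522 preMem (memory precursors), 232 LZtoDZ (light zone to dark zone, by its name), 2382 DZ (dark zone) and 3194 LZ (light zone of the germinal centre). They share the animals and differ in how the cells were captured. The PC well gave 234 PC, 10 prePC, 36 preMem, 43 LZtoDZ, 35 DZ and 78 LZ cells. The states differ in depth as well, with a median of 14004.5 UMIs per cell outside immunoglobulin genes in PC, 14856 in prePC, 5252.5 in preMem, 22407.5 in LZtoDZ, 9127.5 in DZ and 7668 in LZ. The share of cells called as G1 was 50.4% in PC, 57.4% in prePC, 93.1% in preMem, 7.33% in LZtoDZ, 37.0% in DZ and 54.2% in LZ. The plasma cell markers Sdc1, Prdm1, Xbp1, Irf4, Jchain and Tnfrsf17 were all higher in PC and in prePC than in LZ, with a summed mean of 22801 CPM in PC, 2799 CPM in prePC and 1093 CPM in LZ. In DZ the list averaged 1729 CPM, and its 1630 to 1898 CPM overlapped the 1648 to 4498 CPM of prePC. All 6 germinal centre markers were lower than in LZ in PC, prePC and preMem, 5 of 5 memory markers were higher in preMem and prePC, and DZ had 4 of 4 dark zone markers higher and 4 of 4 light zone markers lower. LZtoDZ did not lie between the zones by these lists: dark zone markers averaged 270 CPM in LZtoDZ, 865 in DZ and 491 in LZ, germinal centre markers 634, 1305 and 1040 CPM, and light zone markers 787, 311 and 1028 CPM in the same order, so that it was between them for the light zone list alone. The share of mitochondrial RNA, a sign of RNA quality, was 1.35% to 1.46% in PC, 1.46% to 2.15% in prePC, 1.93% to 2.28% in preMem, 1.09% to 1.59% in LZtoDZ, 1.79% to 1.86% in DZ and 1.79% to 1.85% in LZ. Markers of T cells summed to 0 to 33.5 CPM in PC, where Cd3d and Cd3e were at 0, and to 0 to 428 CPM in prePC, 55.0 to 111 in preMem, 53.1 to 109 in LZtoDZ, 43.9 to 85.5 in DZ and 102 to 158 CPM in LZ. Myeloid markers summed to 7.7 to 126 CPM in PC, 17.8 to 244 in prePC, 21.4 to 72.3 in preMem, 3.5 to 41.3 in LZtoDZ, 6.5 to 33.3 in DZ and 9.8 to 132 CPM in LZ, with Csf1r at 0 in the first 4 states. Red blood cell markers averaged at most 30.7 CPM, the value in LZ. The part of these markers and of the mitochondrial share in the results was not tested.

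The unit of comparison was the mouse: counts of the cells of 1 mouse and 1 state were summed and scaled to CPM, a share of the counts outside immunoglobulin genes with TMM-adjusted totals. The summed CPM of marker lists, here and below, used totals without TMM adjustment. CPM does not show the amount of RNA per cell. The authors named the states from the expression of these same cells, and it is not given whether proteasome genes took part. With the mouse as a block, p-values between states set a difference against its variation from mouse to mouse. They do not measure the certainty of the naming. All comparisons with LZ share the same LZ sums. Shares of all tested genes called, given beside counts of members, are those of the main fit. Splits of members under other settings stand without such shares. They show how the count of members moves, and not how the members stand against all genes.

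On the TMM scale, proteasome subunit RNA was highest in PC and LZtoDZ and lowest on average in preMem. The 14 constitutive core genes together stood at 5881 to 7184 CPM in PC (median 6383 CPM), 2739 to 4725 in prePC (4333), 2880 to 3216 in preMem (2979), 5380 to 6287 in LZtoDZ (5649), 4108 to 4479 in DZ (4318) and 3922 to 4113 in LZ (4056). Every PC sum and every LZtoDZ sum lay above all LZ sums, and every preMem sum lay below them. The 17 genes of the regulatory particle gave 3042 to 3782 CPM in PC (median 3554 CPM), 2066 to 3027 in prePC (2457), 1761 to 2027 in preMem (1899), 3370 to 3521 in LZtoDZ (3444), 2596 to 2808 in DZ (2708) and 2466 to 2514 in LZ (2472). Here PC and LZtoDZ overlapped and both lay above LZ. The order of PC and LZtoDZ turned with the scaling: without TMM the core averaged 5405 CPM in PC and 6020 CPM in LZtoDZ, and the regulatory sum 2952 CPM in PC and 3640 CPM in LZtoDZ. Over the 39 tested members, mean CPM was highest in PC for 20, in LZtoDZ for 15, in preMem for 2 (Psmb10 and Psme1) and in DZ for 2 (Psmd4 and Psmd10), and it was lowest in preMem for 29. This tally is on the TMM scale, and without it 5 members were called higher and 22 lower in PC than in LZtoDZ. How often all tested genes were highest or lowest in each state was not counted. The tally thus orders the states within the members and does not set the members apart from other genes.

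**Figure D1:**
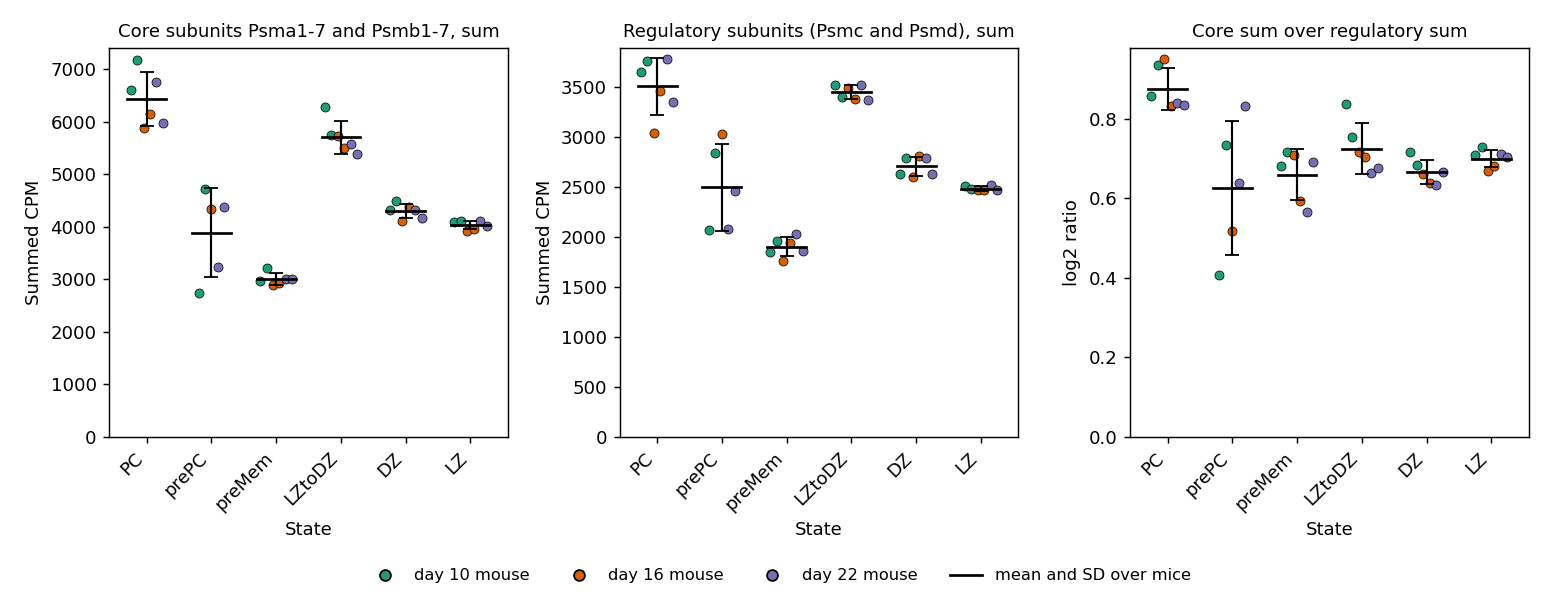
Summed expression of the core genes (CPM, left), of the regulatory particle genes (CPM, middle) and their ratio (log2, right) in each state; each dot is 1 mouse, coloured by day, and lines give the mean and SD. PC and LZtoDZ sit above LZ in both sums and preMem below it, while the ratio is highest on average in PC, at 0.83 to 0.95.

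The balance between core and regulatory particle was shifted furthest toward the core in PC. The log2 ratio of the core sum to the regulatory sum was 0.87 ± 0.05 in PC, 0.63 ± 0.17 in prePC (n = 5), 0.66 ± 0.06 in preMem, 0.72 ± 0.06 in LZtoDZ, 0.67 ± 0.03 in DZ and 0.70 ± 0.02 in LZ (SD, n = 6 mice unless given). It was higher in PC than in LZ in 6 of 6 mice, by 0.13 to 0.28, and higher in PC than in LZtoDZ in 6 of 6 mice by a mean of 0.15 ± 0.07. Against prePC it was higher in 5 of 5 mice. Between LZtoDZ and LZ the core rose by 0.50 ± 0.07 and the regulatory sum by 0.47 ± 0.02 on the log2 scale, and the ratio was higher in 4 of 6 mice. Sums over the members were not tested, because the genes were chosen with earlier results of these data known.

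**Figure D2:**
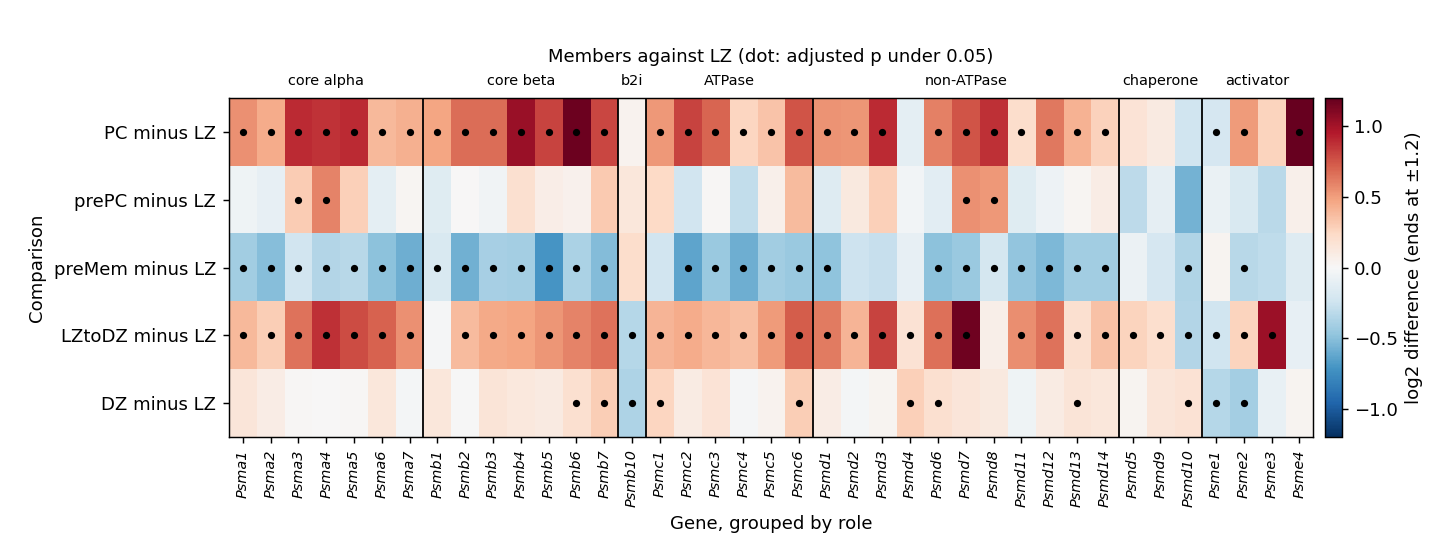
Log2 difference from LZ of each of the 39 tested members (columns, grouped by role) in PC, prePC, preMem, LZtoDZ and DZ (rows); colours end at 1.2 in each direction, and a dot marks an adjusted p under 0.05. Core and regulatory genes are higher throughout most of the PC and LZtoDZ rows and lower in preMem, while Psmb10 and Psme1 are lower than LZ in LZtoDZ and DZ.

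PC against LZ asks how plasma cells differ from the germinal centre cells of the light zone. In PC 32 of 39 members were higher and 1 was lower (edgeR's quasi-likelihood test with Benjamini-Hochberg adjustment over all 7474 genes tested), where 31.1% of all tested genes were higher and 32% lower. Their median log2 difference was 0.54, against −0.05 for all tested genes. Without TMM scaling, which moved the median of all genes by −0.33, 23 were higher and 4 lower. All 7 alpha ring genes and all 7 constitutive beta ring genes rose, with medians of 0.55 and 0.80. All 6 ATPase genes rose (median 0.61), as did 10 of 11 other regulatory particle genes (median 0.54). None of the 3 chaperones of regulatory particle assembly that carry a subunit name, Psmd5, Psmd9 and Psmd10, was called, and 0 of them had an unadjusted p under 0.05. On totals without TMM adjustment, T cell markers averaged 14.8 CPM in PC and 134 CPM in LZ, and myeloid markers 45.8 CPM in PC and 64.9 CPM in LZ. PC and LZ cells came mainly from different wells, and within the PC well, with 36 members tested, 18 were higher and 0 lower (median 0.52), with Psmb6 at 1.01 (adjusted p = 2.3e-05) and Psmb7 at 0.50 (adjusted p = 0.11).

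Among the catalytic genes, Psmb6, which encodes the caspase-like subunit (chromosome 11, 70525367 to 70527858, GRCm38), had 416 to 607 CPM in PC (median 503 CPM), against 221 to 248 CPM in LZ (median 235 CPM). The ranges did not overlap, and the log2 difference was 1.17 ± 0.08 (SE; adjusted p = 3.1e-18). Psmb5, the chymotrypsin-like subunit that the drug bortezomib blocks, had 385 to 548 CPM in PC (median 516 CPM), against 279 to 299 CPM in LZ (median 288 CPM). It rose by 0.81 ± 0.08 (adjusted p = 4.4e-13). Psmb7, the trypsin-like subunit, stood at 122 to 228 CPM in PC (median 177 CPM), against 105 to 117 CPM in LZ (median 110 CPM), and rose by 0.80 ± 0.09 (adjusted p = 3.4e-11). All 3 constitutive sites were thus higher in PC, each in 6 of 6 mice. Psmb4, a beta ring subunit without a proteolytic site, had 405 to 558 CPM in PC (median 500 CPM) and 231 to 245 CPM in LZ (median 241 CPM), a difference of 1.03 ± 0.07 (adjusted p = 3.7e-18). Of the alpha ring, Psma3 had 436 to 621 CPM in PC and 291 to 327 CPM in LZ (0.90 ± 0.07, adjusted p = 2.5e-15).

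In the regulatory particle, the largest rise in PC was in Psmd3, a scaffold subunit of the lid, at 101 to 159 CPM in PC and 65.5 to 71.4 CPM in LZ (0.89 ± 0.10, adjusted p = 1.8e-11). Psmd8, whose yeast counterpart joins the lid last, had 419 to 508 CPM in PC (median 474 CPM), against 239 to 266 CPM in LZ (median 251 CPM), and rose by 0.88 ± 0.07 (adjusted p = 2.3e-15). The ATPase gene Psmc2 had 178 to 280 CPM in PC, against 118 to 131 CPM in LZ (0.82 ± 0.09, adjusted p = 7.3e-12). These 3 genes separated PC from LZ with no overlap. Psmd14, which encodes the deubiquitinase that removes the chain as the substrate enters, differed less, at 110 to 201 CPM in PC and 133 to 145 CPM in LZ (0.27 ± 0.09, adjusted p = 0.007, higher in 5 of 6 mice). Psmd4, a ubiquitin receptor, had 182 to 243 CPM in PC and 210 to 244 CPM in LZ and was not called (−0.12 ± 0.08, adjusted p = 0.19).

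The member that differed most was Psme4, which encodes PA200, a nuclear activator that opens the core gate without ubiquitin and is known from histone breakdown (chromosome 11, 30771726 to 30880361, GRCm38). It had 32.7 to 60.8 CPM in PC (median 49.0 CPM), against 7.19 to 14.6 CPM in LZ (median 11.9 CPM). The lowest PC mouse stood above the highest mouse of every other state, whose values were 0 to 25.5 CPM in prePC, 5.35 to 23.1 in preMem, 3.08 to 19.1 in LZtoDZ and 10.4 to 14.7 in DZ. The log2 difference from LZ was 1.91 ± 0.19 (adjusted p = 1.2e-12), that from LZtoDZ 2.01 ± 0.24 (adjusted p = 2.8e-10) and that from prePC 1.84 ± 0.41 (adjusted p = 0.00028). A Psme4 UMI was found in 94 of 242 PC (38.8%, exact 95% interval 32.7% to 45.3%) and in 301 of 3194 LZ cells (9.42%, 8.43% to 10.5%). With cells thinned to 4638 UMIs and shallower cells left out, the shares were 15.0% in PC, 6.82% in prePC, 5.61% in preMem, 6.58% in LZtoDZ, 5.54% in DZ and 5.29% in LZ. Within the PC well alone, unthinned, 90 of 234 PC (38.5%) and 9 of 78 LZ cells (11.5%) had one. There the median was 13869 UMIs per cell outside immunoglobulin genes in PC and 4955 in LZ. Thinned, 34 of 226 PC (15.0%, 10.6% to 20.4%) and 4 of 45 LZ cells (8.89%, 2.48% to 21.2%) had one, with overlapping intervals.

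**Figure D3:**
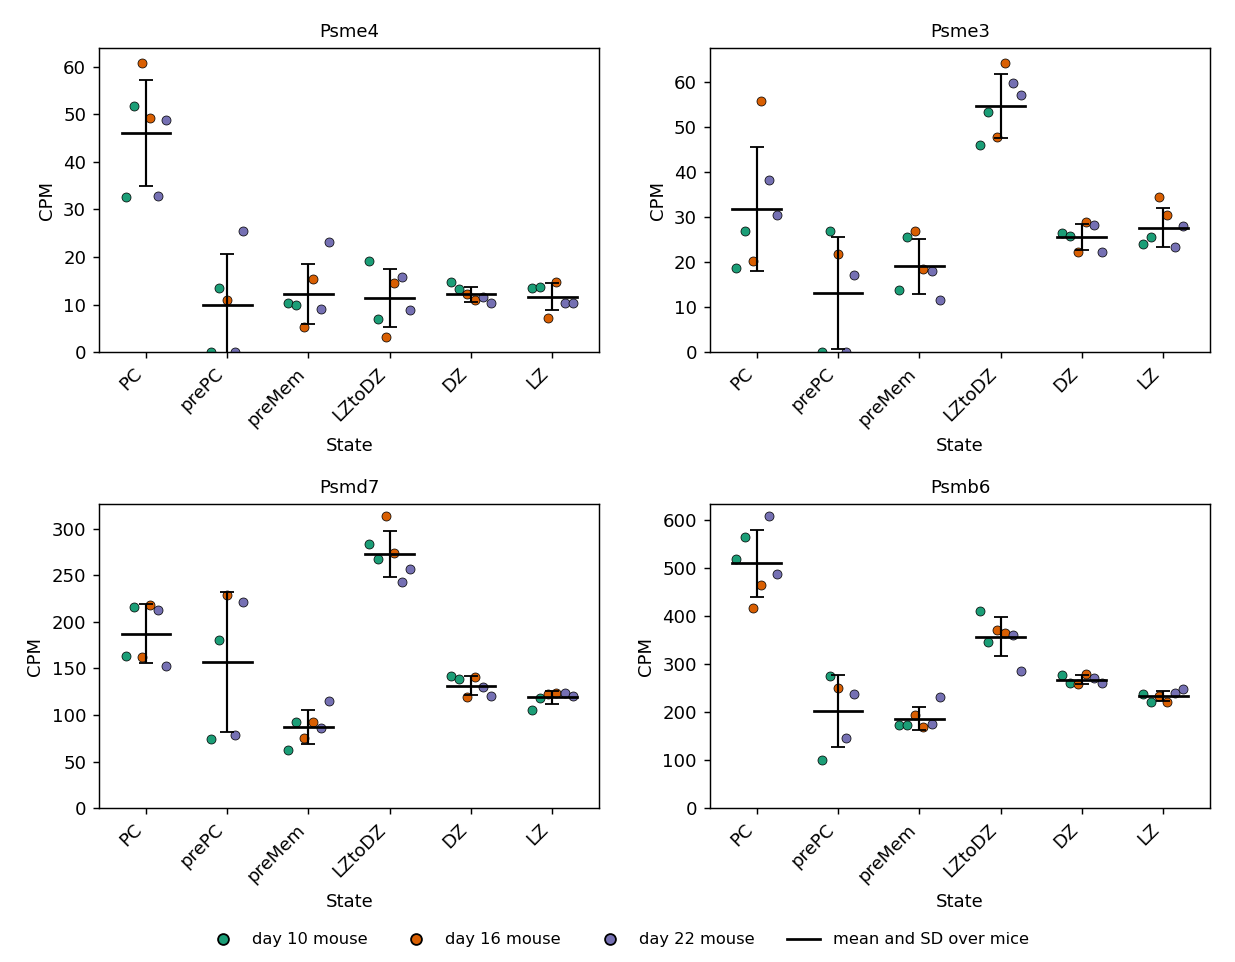
Expression (CPM) of Psme4, Psme3, Psmd7 and Psmb6 in each mouse and state, with each dot 1 mouse. Psme4 sits at 32.7 to 60.8 CPM in PC, above every other sum, Psme3 and Psmd7 are highest in LZtoDZ, and Psmb6 is highest in PC.

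The promoters of Psmb5, Psmb6 and Psme4 are shown because these genes rose most or carry a catalytic site, with that of Psme1 as the activator gene that was lower in PC. They run from 100 bases before to 20 bases after the RefSeq start site on GRCm38.p6, at chr14:54617976-54618095 (minus strand), chr11:70525257-70525376 (plus), chr11:30771675-30771794 (plus) and chr14:55578394-55578513 (plus). Capitals mark matches, on either strand, to TGACNNNGC, the core of the antioxidant response element to which the proteasome gene regulator NFE2L1 is known to bind, and to CCGGAAG, the core of an ETS factor site.
Psmb5: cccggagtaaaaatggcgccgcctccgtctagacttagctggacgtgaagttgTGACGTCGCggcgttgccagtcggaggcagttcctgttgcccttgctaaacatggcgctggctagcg
Psmb6: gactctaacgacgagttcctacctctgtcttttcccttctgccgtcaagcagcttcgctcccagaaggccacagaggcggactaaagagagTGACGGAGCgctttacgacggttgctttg
Psme4: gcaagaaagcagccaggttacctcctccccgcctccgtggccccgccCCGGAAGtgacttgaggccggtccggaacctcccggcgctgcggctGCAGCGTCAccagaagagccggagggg
Psme1: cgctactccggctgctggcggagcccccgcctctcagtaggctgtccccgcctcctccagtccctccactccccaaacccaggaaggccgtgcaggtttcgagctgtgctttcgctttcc

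The Psmb5 match TGACGTCGC lies 47 bases before the start site and the Psmb6 match TGACGGAGC 9 bases before it. Psme4 holds GCAGCGTCA, the same motif read on the other strand, 7 bases before the start and CCGGAAG 53 bases before it, and the stretch shown of Psme1 holds neither motif. RefSeq promoters were matched for 33 of the 40 members (36 promoters). In windows of 300 bases, from 250 before to 50 after the start, TGACNNNGC was found in 6 of 36 member promoters (16.7%) and in 12.4% of all 32851 promoters. CCAAT, the box bound by NF-Y, was found in 12 of 36 (33.3%) and in 37.4% of all. CCGGAAG was found in 13 of 36 (36.1%) and in 8.86% of all. The matches marked above do not overlap each other. These are matches of letters and were not tested as binding sites.

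PC against LZtoDZ sets side by side the states with the highest sums. Of the members 14 were higher in PC and 5 lower, where 28.8% of all tested genes were higher and 28.7% lower. The median difference was 0.12, against −0.03 for all tested genes. The core had 7 of 14 genes higher and 1 lower, 6 of the 7 being beta ring genes, and the regulatory particle 4 of 17 higher and 3 lower. Psmb6 (0.58 ± 0.09, adjusted p = 6.7e-08), Psmb4 (0.56 ± 0.08, adjusted p = 1.3e-08) and Psmd8 (0.81 ± 0.08, adjusted p = 9.1e-13) were higher in PC in 6 of 6 mice. Psmd8 stood at 419 to 508 CPM in PC and 247 to 287 CPM in LZtoDZ. Psmb1, a beta ring subunit without a proteolytic site, was also higher, at 554 to 768 CPM in PC, against 449 to 532 CPM in LZtoDZ (0.49 ± 0.07, adjusted p = 3.5e-08). Psmd7 (−0.42 ± 0.10, adjusted p = 0.00027), Psmd11 (−0.35 ± 0.09, adjusted p = 0.00067) and Psma6 (−0.32 ± 0.08, adjusted p = 0.00072) were lower in PC. The split of these calls depended on the scaling: without TMM scaling, which moved the median of all genes by −0.36, it was 5 higher and 22 lower, with immunoglobulin genes kept 6 higher and 7 lower, and with DESeq2 size factors 10 higher and 8 lower. The differences above are thus relative to the typical gene. The shares of all tested genes called under these 3 settings are not given here. The PC well held 234 of 242 PC and 43 of 232 LZtoDZ cells. Within it 4 members were called, in a fit with 4 LZtoDZ sums, and with thinned cells 9 were called.

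PC against prePC sets plasma cells beside the cells named as their precursors. The PC well gave 234 of 242 PC but 10 of 47 prePC, so state and well are largely confounded. No fit of this comparison within a single well was made. Of the members 25 were higher in PC and 0 lower, where 17.8% of all tested genes were higher and 12.3% lower, and the median was 0.55, against 0.05 for all tested genes. Without TMM scaling 12 were higher and 3 lower, with thinned cells 13 were higher and 0 lower, and in a fit of these 2 states alone 3 were higher and 1 lower. The core had 13 of 14 genes higher (median 0.61) and the regulatory particle 10 of 17 (median 0.39). Psmb6 had 416 to 607 CPM in PC, against 99.6, 274, 250, 145 and 238 CPM in the 5 prePC sums, and rose by 1.13 ± 0.13 (adjusted p = 9.4e-10). Psmc2 rose by 1.04 ± 0.16 (adjusted p = 6.7e-07), Psmb4 by 0.84 ± 0.11 (adjusted p = 3.2e-08) and Psmb5 by 0.73 ± 0.12 (adjusted p = 3.7e-06), each in 5 of 5 mice. The prePC sums rest on 3, 28, 5, 5 and 6 cells, and day 16 mouse 1 had none. The sum of 3 cells, from day 10 mouse 1, had the lowest value of Psmb6.

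PrePC against LZ showed few differences. Of the members 4 were higher and 0 lower, where 8.51% of all tested genes were higher and 10.3% lower, and the median was 0.01, against −0.09 for all tested genes. Psma4, an alpha ring subunit, had 249, 331, 327, 132 and 332 CPM in prePC, against 178 to 208 CPM in LZ (0.59 ± 0.13, adjusted p = 0.00063, higher in 4 of 5 mice). Psmd8 had 423, 450, 294, 224 and 315 CPM in prePC, against 239 to 266 CPM in LZ (0.52 ± 0.10, adjusted p = 0.00016, higher in 4 of 5 mice). The sum from day 22 mouse 1 was the low one in both genes. Psmd7 (0.55 ± 0.15, adjusted p = 0.0069) and Psma3 (0.31 ± 0.11, adjusted p = 0.038) were higher in 3 of 5 mice. Without day 10 mouse 2, which gave 28 of the 47 cells, 0 members were called by edgeR's test, and in cells called as G1 the differences of Psmd7 and Psma3 were −0.49 and −0.42.

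LZtoDZ against LZ sets the cells named for the passage to the dark zone beside those of the light zone. Here 33 of 39 members were higher and 3 lower, where 26.1% of all tested genes were higher and 34.8% lower. The median was 0.45, against −0.10 for all tested genes. All 7 alpha ring genes (median 0.66), 6 of 7 beta ring genes (0.48), all 6 ATPase genes (0.43) and 10 of 11 other regulatory particle genes (0.56) rose. The exceptions were Psmb1 (−0.01 ± 0.06, adjusted p = 0.86) and Psmd8 (0.07 ± 0.07, adjusted p = 0.39), both of which were higher in PC. Of the LZtoDZ cells 7.33% were called as G1, against 54.2% of the LZ cells. Among G1 cells alone 4 members were higher and 0 lower, in a fit that held 1 LZtoDZ sum.

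Psmd7, a lid subunit that pairs with the deubiquitinase Psmd14 (chromosome 8, 107580381 to 107588464, GRCm38), had 243 to 314 CPM in LZtoDZ (median 270 CPM), against 106 to 123 CPM in LZ (median 121 CPM). The lowest LZtoDZ mouse was above the highest mouse of every other state, PC included (152 to 219 CPM). The log2 difference from LZ was 1.17 ± 0.07 (adjusted p = 1.1e-18), while Psmd14 itself had 148 to 230 CPM in LZtoDZ and 133 to 145 CPM in LZ (0.35 ± 0.07, adjusted p = 3.4e-05). Psme3, which encodes PA28γ, a nuclear activator of the core, had 45.9 to 64.2 CPM in LZtoDZ (median 55.1 CPM), against 23.3 to 34.5 CPM in LZ (median 26.7 CPM; 1.02 ± 0.12, adjusted p = 1.5e-10). In PC it had 18.7 to 55.7 CPM and was not called against LZ (0.27 ± 0.18, adjusted p = 0.19), and relative to LZtoDZ it fell by 0.76 ± 0.18 (adjusted p = 0.00034). So the nuclear activators differed in where they peaked, Psme4 in PC and Psme3 in LZtoDZ, where Psme4 had a difference from LZ of −0.10 ± 0.22 (adjusted p = 0.71). A Psme3 UMI was found in 69.4% of LZtoDZ cells and 20.4% of LZ cells, and after thinning in 22.8% of LZtoDZ cells and 12.4% of LZ cells.

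Members of both rings and of the regulatory particle also rose in LZtoDZ. Psma4 had 308 to 517 CPM in LZtoDZ, against 178 to 208 CPM in LZ (0.88 ± 0.08, adjusted p = 2.9e-14). Psmd3 had 97 to 131 CPM in LZtoDZ, against 65.5 to 71.4 CPM in LZ (0.81 ± 0.08, adjusted p = 6.2e-13). The constitutive catalytic genes Psmb7 (0.65 ± 0.07, adjusted p = 1.2e-10), Psmb6 (0.59 ± 0.07, adjusted p = 1.5e-09) and Psmb5 (0.53 ± 0.07, adjusted p = 7.6e-09) rose in 6 of 6 mice. The members that fell in LZtoDZ were Psmd10, or gankyrin, a chaperone of ATPase ring assembly (−0.35 ± 0.10, adjusted p = 0.0016), with 38.3 to 61.5 CPM in LZtoDZ and 61.0 to 74.6 CPM in LZ, and the inducible genes Psmb10 and Psme1.

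DZ against LZ showed smaller differences. Of the members 8 were higher and 3 lower, where 13.4% of all tested genes were higher and 18.3% lower, and the median was 0.10, against −0.02 for all tested genes. The split was 18 higher and 3 lower without TMM scaling and 3 higher and 3 lower with immunoglobulin genes kept. The trypsin-like subunit gene Psmb7 (0.30 ± 0.06, adjusted p = 0.00011), the ATPase genes Psmc6 (0.29 ± 0.06, adjusted p = 5e-05) and Psmc1 (0.26 ± 0.07, adjusted p = 0.0015) and the ubiquitin receptor gene Psmd4 (0.29 ± 0.05, adjusted p = 2.9e-05) rose. Psmd4 had 244 to 313 CPM in DZ and 210 to 244 CPM in LZ. Among G1 cells the difference of Psmc1 was −0.016. The 3 members that fell were Psmb10, Psme1 and Psme2. Against DZ, LZtoDZ had 29 members higher and 2 lower, where 26.1% of all tested genes were higher and 35.2% lower. Psme3 (1.11 ± 0.12, adjusted p = 2e-11) and Psmd7 (1.03 ± 0.07, adjusted p = 7.6e-17) were again the largest, while Psmd10 (−0.53 ± 0.10, adjusted p = 6.1e-06) and Psmb1 (−0.15 ± 0.06, adjusted p = 0.03) fell.

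PreMem against LZ ran the other way. Of the members 0 were higher and 29 lower, where 21.4% of all tested genes were higher and 19.6% lower, and the median was −0.41, against 0.03 for all tested genes. All 7 alpha ring and all 7 beta ring genes fell (medians −0.42 and −0.41), as did 5 of 6 ATPase genes (−0.45) and 8 of 11 other regulatory particle genes (−0.42). Psmb5 had 140 to 193 CPM in preMem (median 174 CPM), against 279 to 299 CPM in LZ (median 288 CPM), a difference of −0.71 ± 0.10 (adjusted p = 2.5e-08). Psma7 of the alpha ring had 265 to 340 CPM in preMem and 452 to 481 CPM in LZ (−0.58 ± 0.08, adjusted p = 1e-08). The ATPase genes Psmc2 (−0.64 ± 0.11, adjusted p = 7.3e-06) and Psmc4 (−0.59 ± 0.10, adjusted p = 1.4e-06) fell in 6 of 6 mice, as did the deubiquitinase gene Psmd14 (−0.42 ± 0.10, adjusted p = 0.00095). Psmd4 (−0.10 ± 0.08, adjusted p = 0.33), Psme1 (0.03 ± 0.07, adjusted p = 0.72) and Psmb10 (0.21 ± 0.09, adjusted p = 0.072) were among the members not called. PreMem cells were the shallowest. Thinning cells to the same depth, with shallower cells left out, kept 321 of 522 preMem and 2893 of 3194 LZ cells. That setting left 2 members higher and 9 lower with a median of −0.20, and it moved the median of all genes by 0.14. The effect of equal depth was not separated from that of leaving out the shallower cells. Among G1 cells alone 26 members were lower and 0 higher. The mitochondrial share was 1.93% to 2.28% in preMem and 1.79% to 1.85% in LZ, and its part was not tested.

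Among the interferon-inducible members, Psmb10 and Psme1 were lower in LZtoDZ and DZ than in LZ. Psmb10 encodes the inducible trypsin-like subunit that takes the place of Psmb7, and Psme1 and Psme2 encode PA28α and PA28β, the activator linked to antigen processing. Psmb10 had 155 to 233 CPM in PC (median 181 CPM), 134 to 180 CPM in LZtoDZ (median 148 CPM), 129 to 154 CPM in DZ (median 148 CPM) and 170 to 205 CPM in LZ (median 189 CPM). It was lower than in LZ in DZ (−0.37 ± 0.06, adjusted p = 8.4e-06) and LZtoDZ (−0.34 ± 0.08, adjusted p = 0.00028), in 6 of 6 mice each, and was not called in PC (0.05 ± 0.09, adjusted p = 0.68). Psme1 had 466 to 578 CPM in PC, 453 to 556 CPM in LZtoDZ, 442 to 548 CPM in DZ and 560 to 631 CPM in LZ. It was lower than in LZ in all of these, with log2 differences of −0.20 ± 0.07 in PC (adjusted p = 0.011), −0.23 ± 0.06 in LZtoDZ (adjusted p = 0.0011) and −0.34 ± 0.06 in DZ (adjusted p = 4e-06). Within the PC well the difference between PC and LZ was 0.0094.

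Psme2 and its partner Psme1 were called in opposite directions in PC and LZtoDZ and in the same direction in DZ. It had 365 to 654 CPM in PC (median 528 CPM), 392 to 528 CPM in LZtoDZ (median 474 CPM), 259 to 330 CPM in DZ (median 292 CPM) and 347 to 413 CPM in LZ (median 385 CPM). It was higher than in LZ in PC (0.51 ± 0.08, adjusted p = 1.7e-07) and LZtoDZ (0.27 ± 0.07, adjusted p = 0.00093), and lower in DZ (−0.41 ± 0.07, adjusted p = 1.8e-06) and preMem (−0.33 ± 0.09, adjusted p = 0.0021). The table also lists Psme2b, a near copy of Psme2, and how reads shared by both were counted is not given, so the values of Psme2 are uncertain. Of the immunoproteasome genes outside the list, Psmb9 was higher in PC than in LZ (0.52 ± 0.08, adjusted p = 4.7e-08) and Psmb8 was not called (0.09, adjusted p = 0.28). Both were lower in LZtoDZ than in LZ, with differences of −0.42 ± 0.07 for Psmb9 (adjusted p = 2.1e-06) and −0.33 ± 0.07 for Psmb8 (adjusted p = 3.8e-05).

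The balance between the inducible and the constitutive trypsin-like subunit was expressed as the share of Psmb10 in the UMIs of both genes. In PC it was 60.2%, 49.9%, 60.0%, 46.4%, 48.3% and 47.5% in the 6 mice (mean 52.0% ± 6.36, SD). It averaged 62.8% ± 13.5 in prePC (n = 5), 72.6% ± 7.42 in preMem, 46.3% ± 2.46 in LZtoDZ, 51.7% ± 2.50 in DZ and 63.0% ± 1.08 in LZ (n = 6 each). The share was lower than in LZ in 6 of 6 mice in PC, LZtoDZ and DZ, with mean differences of −10.9, −16.6 and −11.3 percentage points. In preMem it was higher than in LZ in 5 of 6 mice, by a mean of 9.63 points. UMI counts of different genes are not scaled for how well each is captured, so the share compares states and not the amounts of the subunits.

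**Figure D4:**
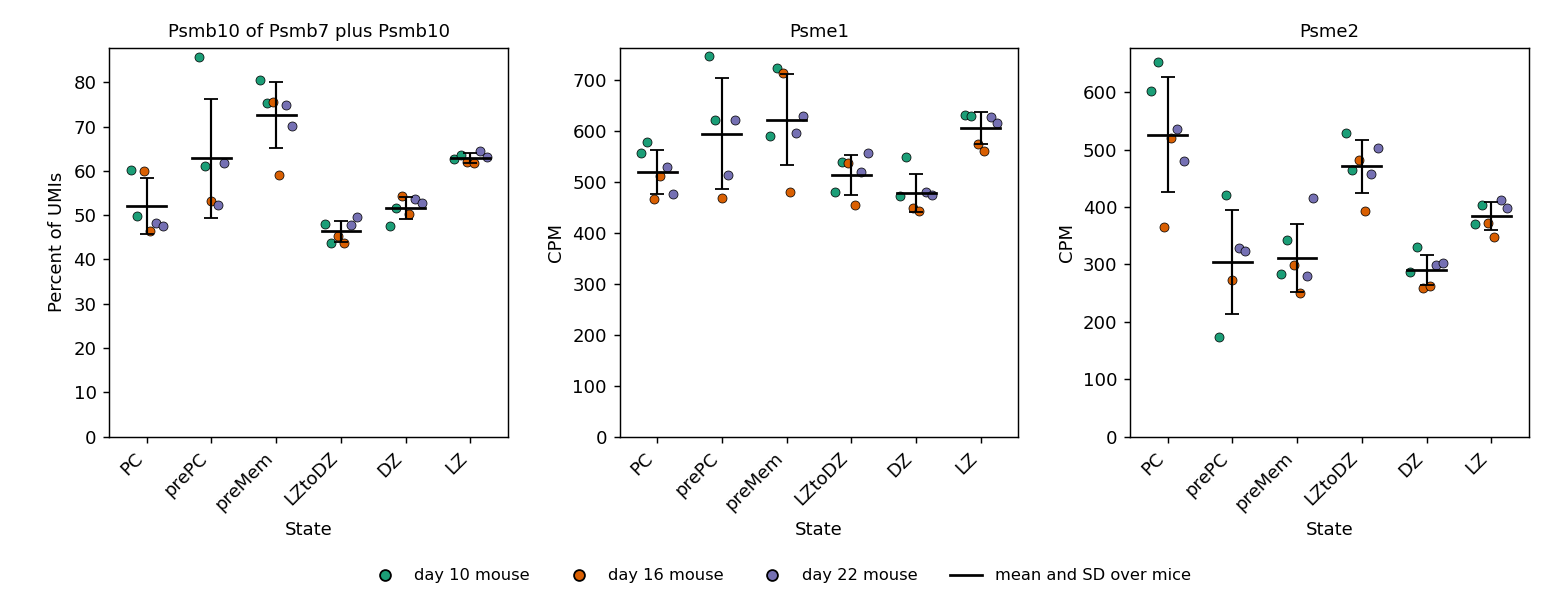
Share of Psmb10 in the UMIs of Psmb7 and Psmb10 (percent, left) and expression of Psme1 and Psme2 (CPM, middle and right) in each mouse and state, with each dot 1 mouse. The Psmb10 share lies below LZ in every LZtoDZ, DZ and PC sum, and Psme1 and Psme2 differ in PC, where Psme2 is mostly above LZ and Psme1 mostly below it.

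Within LZ and DZ, cells in S and in G2M were compared with cells in G1 by the authors' phase calls. In LZ, S had 19 members higher and 1 lower than G1, where 23% of all tested genes were higher and 20.5% lower, and G2M had 23 higher and 3 lower, where 22.1% were higher and 20.6% lower. In DZ, S had 16 higher and 3 lower, where 21.1% of all tested genes were higher and 18.4% lower, and G2M had 16 higher and 4 lower, where 22.1% were higher and 21.3% lower. Without TMM scaling the splits in DZ were 9 higher and 4 lower in S and 11 higher and 5 lower in G2M. The medians of the members were 0.16 and 0.20 in LZ and 0.16 and 0.15 in DZ for S and G2M, against −0.03 to −0.02 for all tested genes. The median of LZtoDZ against LZ was 0.45, in a separate fit, and the part of the phases in it was not tested.

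The ATPase genes Psmc2, Psmc3 and Psmc4 were higher in S and in G2M than in G1 in both zones, Psmc3 by 0.35 to 0.48. Psmc4 averaged 209 ± 9.06 CPM in S and 149 ± 5.21 CPM in G1 of LZ (SD, n = 6 mice; 0.49 ± 0.05, adjusted p = 1.1e-11) and was higher by 0.49 ± 0.07 in S of DZ (adjusted p = 6.3e-09), and by 0.48 and 0.31 in G2M of LZ and DZ. Psmc1 averaged 192 ± 16.4 CPM in G2M and 120 ± 5.01 CPM in G1 of DZ (0.69 ± 0.07, adjusted p = 2e-13) and was higher by 0.49 ± 0.07 in G2M of LZ (adjusted p = 4.1e-08), but in S of LZ its difference was 0.01 ± 0.07 (adjusted p = 0.96). Psma7 rose in S (0.31 ± 0.04 in LZ, adjusted p = 5.1e-10, and 0.27 ± 0.05 in DZ, adjusted p = 1e-06) and was not called in G2M (0.03 ± 0.04, adjusted p = 0.65, and −0.07 ± 0.04, adjusted p = 0.22). Psmb10 was lower in S and G2M than in G1 in 6 of 6 mice in each comparison, with differences of −0.27 ± 0.05 (adjusted p = 1.9e-05) and −0.51 ± 0.06 (adjusted p = 2.3e-10) in LZ and of −0.54 ± 0.06 (adjusted p = 2.2e-10) and −0.55 ± 0.06 (adjusted p = 1e-11) in DZ. Psme1 in G2M fell by 0.37 ± 0.04 in LZ (adjusted p = 4e-11) and fell by 0.39 ± 0.04 in DZ (adjusted p = 2.7e-12), and in S it fell by 0.26 ± 0.04 in DZ (adjusted p = 8e-07) and was not called in LZ (−0.09, adjusted p = 0.055). Psme2 in G2M fell by 0.23 ± 0.05 in LZ (adjusted p = 7.4e-05) and fell by 0.29 ± 0.05 in DZ (adjusted p = 2.1e-06), and it was not called in S of LZ (−0.10, adjusted p = 0.054) or of DZ (−0.12, adjusted p = 0.064). Among G1 cells alone, Psmb10 in DZ against LZ had a difference of −0.15 (adjusted p = 0.27), Psme1 −0.18 (adjusted p = 0.13) and Psme2 −0.31 (adjusted p = 0.0015).

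Between day 22 and day 10 no member was called in LZ, DZ or PC by edgeR's quasi-likelihood test or by DESeq2, where 4.39%, 2.53% and 0% of all tested genes were called. At an unadjusted p under 0.05 by edgeR's test there were 4 members in LZ, 2 in DZ and 0 in PC. The share of all tested genes at that threshold is not given here, so these counts are not read as a result. The medians were −0.02, −0.05 and −0.06. With 2 mice per day, differences of the size seen between states could go undetected, above all in PC.

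Genes that work with the proteasome were read against the shares called among all tested genes, which were 31.1% higher and 32% lower in PC against LZ, 26.1% higher and 34.8% lower in LZtoDZ against LZ, and 28.8% higher and 28.7% lower in PC against LZtoDZ. Of the genes of endoplasmic reticulum-associated degradation, the route that pulls misfolded secretory proteins back for the proteasome, 18 of 18 tested were higher in PC than in LZ (median 1.83), and in LZtoDZ 4 were higher and 5 lower (median −0.26), near the shares of all genes. Derl3, a membrane component of this route, was higher in PC by 4.98 ± 0.14 (adjusted p = 3.9e-34), and Edem2, which trims sugars on misfolded glycoproteins, by 3.94 ± 0.11 (adjusted p = 5.8e-35). Vcp, which encodes the ATPase p97 that extracts the proteins, was higher in PC by 1.35 ± 0.08 (adjusted p = 1.2e-21) and in LZtoDZ by 0.34. In LZtoDZ the ubiquitin ligase gene Syvn1 fell by 1.27. So PC and LZtoDZ, which both had high proteasome sums, differed in this list, and 17 of its genes were higher and 0 lower in PC than in LZtoDZ.

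Of 5 tested assembly chaperones, 4 were higher in LZtoDZ than in LZ (median 0.87) and 4 in PC than in LZ (median 0.45), and in PC against LZtoDZ 1 was higher and 3 lower (median −0.73), a comparison in which the split of calls depends on the scaling. Psmg1 and Psmg2, which pair to build the alpha ring, rose in LZtoDZ by 1.43 ± 0.10 (adjusted p = 4.8e-17) and 1.10 ± 0.09 (adjusted p = 8e-16), and in PC by 0.48 and 0.37. Pomp, which guides beta ring assembly, rose in PC by 0.47 ± 0.06 (adjusted p = 1.1e-08). In preMem 3 were lower and 0 higher than in LZ. Of 11 tested proteasome-associated factors, 8 were higher and 1 lower in LZtoDZ than in LZ, and 2 higher and 2 lower in PC, which is below the shares of all genes. The proteasome-bound deubiquitinase gene Uchl5 rose in LZtoDZ by 0.65 and fell by 0.70 in PC (adjusted p = 4.9e-07), whereas the proteasome-bound thioredoxin gene Txnl1 rose in both, by 0.73 in LZtoDZ and 1.08 ± 0.07 in PC (adjusted p = 2.7e-18).

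Uba1, which encodes the main activating enzyme of ubiquitin, was higher in PC than in LZ (0.72 ± 0.11, adjusted p = 1.9e-07). Of 7 genes for transcriptional control of the proteasome, 2 were higher and 3 lower in PC, near the shares of all genes. Nfe2l1 encodes the factor that induces proteasome genes when the protease is short, and Ddi2 the protease that releases it from the membrane. In PC Ddi2 rose by 1.51 ± 0.20 (adjusted p = 7.6e-09) and Nfe2l1 by 0.61 ± 0.22 (adjusted p = 0.013), while the antioxidant regulator Nfe2l2 fell by 0.87 (adjusted p = 1.8e-05). In LZtoDZ 0 of the 7 were called by edgeR's test, and 0 had an unadjusted p under 0.05.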

How the data were processed

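Gene expression was measured in single cells with the 10x Genomics 5′ v2 kit. Per the submitters' processing notes, reads were processed with Cell Ranger and Seurat on mm10/GRCm38, and versions are not given in the sources used here. The deposited matrix holds raw UMI counts per gene and cell. The deposited cell table holds module scores, which were not used here, and the states, phases, days and mice, which were. How the authors named states and phases and treated doublets is not given. No cells were removed here. Of the cell barcodes, 6 occur in both wells. The number of per-sample columns not used was 0.

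The members and the gene lists were chosen with earlier results of these data known. The 254 immunoglobulin genes (2.88% of UMIs) were left out, and counts were summed per mouse and state with at least 10 cells (prePC at least 3). The sums held 32360 to 6655683 counts. The 6 states were fitted together by edgeR 4.0.16 in R 4.3.3, after filterByExpr and TMM scaling, by its quasi-likelihood F test. The mouse was a block, because the states come from the same animals. Phases were fitted the same way within a state, and days without a block. Benjamini-Hochberg adjustment covered every gene in a fit, and an adjusted p under 0.05 is a call. Differences are log2 with their SE, and they are descriptions of relative level in counts without strand or near-copy information. Sums over members, ratios and the Psmb10 share carry no test. Single cells held 1335 to 70744 UMIs, and intervals (exact Clopper-Pearson, 95%) cover counting error only.

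Every member could be named. Full statistics were given for up to 4 called members with the largest difference in each direction and at least 20 CPM, and for Psmb5, Psmb6, Psmb7, Psmb10, Psmd14, Psmd4, Psme1, Psme2, Psme3 and Psme4. Statistics of other members, such as Psmd3, Psmd8 and Psmc2 in PC against LZ and Psma7 in the phases, were added after their values were seen. Of other lists, up to 4 genes with the lowest p could be named. The counts of the ubiquitin list are not reported here. The alternatives were DESeq2 size factors, no TMM, DESeq2's own test (1.42.0), no filter, immunoglobulin genes kept, no mouse block, larger minima of cells, a fit of 2 states, single wells, G1 cells, cells thinned to 4638 UMIs (5957 kept, 662 left out), equal weight per subunit, and each mouse left out. No TMM for the sums was added after seeing the data. The fit was tested on simulated data. Gene positions are from GENCODE M21, and promoters from RefSeq on GRCm38.p6. Python 3.11.15, numpy 2.4.6, pandas 2.3.3, scipy 1.17.1 and matplotlib 3.10.9 were used.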

Additional observations from a re-analysis of the deposited data

Results flagged for a closer look

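Over 84 sets of 5 or 6 mice, a gap test (Dixon, 95%) marked 4 values as far from the other mice of their state, where chance marks about 1 in 20. The Psmb10 share in prePC of day 10 mouse 1 was 85.7%, against 52.4% to 61.8% in the other prePC sums, and it rests on 3 cells with 6 UMIs of Psmb10 and 1 of Psmb7. The core sum in preMem of day 10 mouse 2 was 3216 CPM, against 2880 to 3000 CPM in the other mice, and remained below every LZ sum. Psmb7 in preMem of day 16 mouse 2 had 105 CPM, against 68.9 to 80.7 CPM in the others. Psme1 in DZ of day 10 mouse 2 had 548 CPM, against 442 to 480 CPM in the others.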

How the results depend on the processing

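Of 2941 values for single genes under the alternatives, 2730 stayed on the same side of the threshold, 151 lost the call and 41 gained it. Another 19 changed sign while called in the main fit or in the alternative. Values that changed sign but were called in neither fit count among the 2730. In the PC well alone Psmd10 (0.12) and Psme1 (0.026) in LZtoDZ against LZ, and Psme1 (0.0094) and Psmd14 (−0.21) in PC against LZ, changed sign. In a fit of G1 cells that holds 1 LZtoDZ sum, assumed to vary like the other groups, Psmd14 (−0.49) and Psmd4 (−0.23) in LZtoDZ against LZ, Psmd14 (−0.58) against DZ, Psmc1 in DZ against LZ (−0.016), Psmd7 (−0.49) and Psma3 (−0.42) in prePC, and Psmd4 in PC against LZtoDZ (0.025) did. With thinned cells Psmd4 in LZtoDZ (−0.057), Psma3 in prePC (−0.032) and Psme2 in PC against LZtoDZ (−0.056) did. Without TMM Psmb10 (−0.28) and Psmd14 (−0.053) in PC against LZ, and Psmb5 (−0.052), Psme1 (−0.30) and Psme2 (−0.10) in PC against LZtoDZ did. The cause was not tested.

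Counts of called members moved by more than 1.5 times as follows. LZtoDZ against LZ had 15 in the PC well and 4 in G1, and PC against LZ 18 in the PC well. DZ against LZ had 21 without TMM, 6 with immunoglobulin genes, 18 with larger minima of cells, 25 in a fit of 2 states and 6 in G1. PreMem had 11 thinned, prePC 0 in a fit of 2 states, and LZtoDZ against DZ 4 in G1. PC against LZtoDZ had 4 in the PC well, 2 in G1 and 9 thinned, and PC against prePC 15 without TMM, 4 in a fit of 2 states and 13 thinned. Thinned phases had 13 and 16 in LZ and 7 and 11 in DZ for S and G2M. Leaving out 1 mouse gave 29 to 33 for PC against LZ, 13 to 20 for PC against LZtoDZ, 19 to 26 for PC against prePC, 33 to 36 for LZtoDZ against LZ, 8 to 11 for DZ, 23 to 30 for preMem and 0 to 5 for prePC. Without the block pairing the states by mouse, 33 members were called in PC against LZ (32 higher), 36 in LZtoDZ (33 higher), 27 in preMem, 9 in DZ, 6 in prePC, 27 in PC against prePC and 19 in PC against LZtoDZ, so no count moved by over 1.5 times.

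Core sums without TMM were 5405 CPM in PC, 2830 in preMem, 6020 in LZtoDZ, 4555 in DZ and 4196 in LZ, and regulatory sums 2952, 1794, 3640, 2871 and 2583. That setting moved the median of all genes by −0.33 in PC against LZ and left 23 members higher and 4 lower. Of the genes called in it, 29.4% were higher, a share of called genes and not of all tested genes. In the main fit 2325 of the 7474 tested genes were called higher and 2394 lower. With immunoglobulin genes the core was 2781 in preMem, 4064 in DZ and 3760 in LZ, and the regulatory sum 1762, 2561 and 2315. In G1 the core was 5854 in PC and 2713 in prePC, the regulatory sum 2898 in PC, 1651 in prePC, 2967 in LZtoDZ and 2381 in LZ, the log2 ratio 1.02 in PC, 0.86 in LZtoDZ, 0.72 in DZ and 0.74 in LZ, and the Psmb10 share 34.6% in LZtoDZ (the LZtoDZ values being of 1 sum), 60.4% in DZ and 68.1% in LZ. Thinned, the core was 3574 in preMem and 4249 in LZ, the regulatory sum 2267 in preMem, 3343 in LZtoDZ and 2597 in LZ, the ratio 0.79 in LZtoDZ and the share 54.9% in DZ. With equal weight per subunit the ratio was 1.13 in PC, 0.92 in prePC, 0.90 in preMem, 0.96 in LZtoDZ, 0.91 in DZ and 0.93 in LZ. Of 246 values of sums, ratios and shares, 204 moved by at most 1 SD over mice and 42 by more. The 246 include the values with 1 mouse left out, which cannot move a mean that far. The 204 are thus no measure of stability. Depth limits prePC most, whose smallest sum held 32360 counts.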
